A study of Mus musculus with 6 samples.

Results

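The genes described here encode 10 surface receptors of the immunoglobulin superfamily that restrain mast cells, or that are the activating partners of such receptors: Fcgr2b, Fcgr3, Cd300a, Cd300lf, Cd300lb, Cd200r1, Cd200r3, Cd33, Pilra and Milr1. Each was taken as the row of the deposited array values that the platform annotation names for that gene alone, and if several rows did so the brightest over the 6 arrays was kept; each of the 10 had 1 row. For 9 genes the annotation gave 1 symbol. The Milr1 row also carried Gm885, which RefSeq lists as an older name of Milr1. The 10 genes are among 30710 genes measured. Total RNA was hybridised to whole-transcript Affymetrix arrays. It came from bone marrow-derived mast cells (BMMCs) of C57BL/6J mice, a primary culture grown from femoral marrow for 6 weeks with interleukin 3 and stem cell factor. The 3 naive samples spent 1 h in Tyrode's buffer alone. The 3 ionomycin samples spent the same 1 h in that buffer with 1 µg/mL ionomycin, a calcium ionophore that makes mast cells release their granules. Both were then washed and kept for 3 h in culture medium, which puts RNA extraction 4 h after the start of activation. The labels do not say that replicates came from separate animals or cultures, so the p-values cover only the spread among these 6 samples, part or all of which may be technical.

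Inhibitory receptors of this kind carry tyrosine motifs in their cytoplasmic tails. When the motifs are phosphorylated by Src family kinases they recruit phosphatases, SHP-1, SHP-2 or SHIP1, which oppose the signal of the high-affinity IgE receptor. Their partners often have similar outer domains but short tails, and signal through the adaptor DAP12 or the Fc receptor gamma chain, which carry activating motifs. Mast cells display both kinds at rest.

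All 10 genes lay above background on each of the 6 arrays, background being a log2 signal of 6.06, the 95th percentile of the means of 1423 chemosensory receptor genes. Pilra came closest to it, at 6.29 on the naive replicate 3 array. Brightness differs between probe sets for technical reasons, so levels are not compared between genes here.

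At 4 h after ionomycin, 0 of the 10 genes passed the test against naive cells (limma, adjusted p under 0.05), where 0.287% of all genes passed as higher and 0.0554% as lower. The smallest adjusted p was that of Fcgr2b, 0.1003. At an unadjusted p under 0.05, Cd33 was higher and Fcgr2b, Fcgr3 and Cd200r3 were lower, that is 1 and 3 of the 10, beside 10.1% and 5.4% of all genes. The same 4 genes were those whose naive and ionomycin arrays did not overlap, beside 18.9% of all genes without overlap and higher and 7.26% without overlap and lower. The median difference of the 10 genes was -0.18 on the log2 scale, that of all genes 0.05. In RNA from whole cultures, fewer cells of a type and less RNA per cell cannot be told apart.

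**Figure D1:**
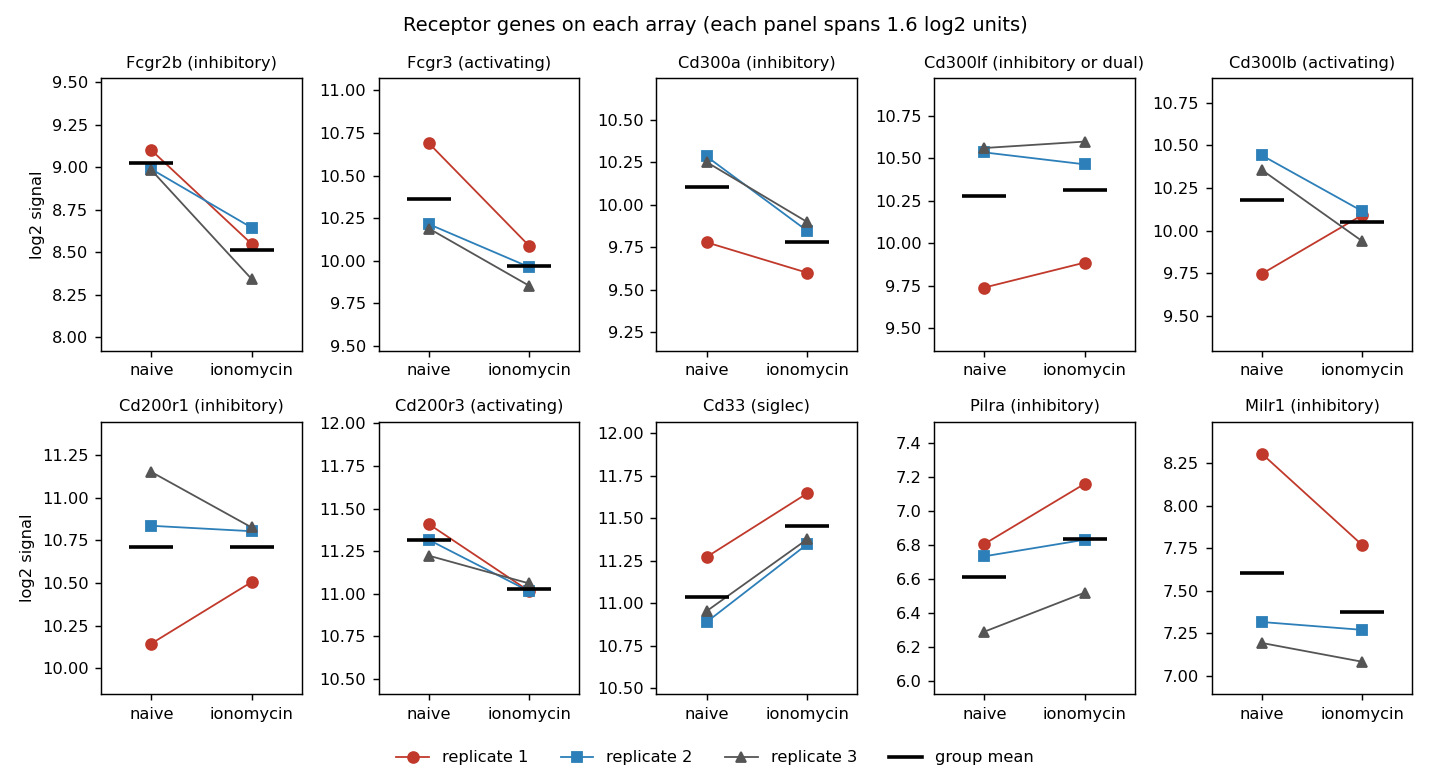
Log2 signal (vertical axis, each panel spanning 1.6 log2 units) of the 10 receptor genes on the 3 naive and 3 ionomycin arrays, with lines joining arrays of the same replicate number and black bars for the group means. Fcgr2b, Fcgr3 and Cd200r3 have all 3 ionomycin arrays below the naive arrays and Cd33 has them above, while the replicate 1 arrays lie apart for Cd300lf, Cd200r1 and Milr1.

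Over all genes, the arrays numbered 1 lay apart from the rest in each group. On the first principal component, which held 52.6% of the variance, naive replicate 1 was at -48.4 and ionomycin replicate 1 at -21.2, while the remaining 4 arrays ran from 12.9 to 22.2. The second component, with 31.8%, separated the groups: naive arrays ran from -24.8 to -15.4 and ionomycin arrays from 10.9 to 31.5. Deviations from the group means correlated between arrays of the same number across genes (r = 0.710, 0.470 and 0.471 for numbers 1, 2 and 3; genes are not independent replicates). Naive array 2 correlated as much with ionomycin array 3 (r = 0.519), and naive array 3 with ionomycin array 2 (0.475). By these correlations the arrays divide into number 1 and the rest. Deviations in a group of 3 sum to 0, so the large deviation of number 1 limits what they show about numbers 2 and 3. Csf1r was higher on array 2 than on array 3 in both groups (7.60 and 7.01 naive, 7.78 and 7.21 ionomycin). Cpa3 was higher on array 2 in ionomycin only (14.16 and 14.31 naive, 14.26 and 14.16 ionomycin). Results are also given with the replicate number as a block and with a block of 2 levels, number 1 against the others. Of mast cell markers, 9 of 9 were above background, with list means between 12.85 and 12.96 in naive and between 12.88 and 12.90 in ionomycin arrays. These list means held opposite differences: Hdc was higher by 1.04, and Ms4a2 (-0.62), Kit (-0.39) and Gata2 (-0.21) were lower, each without overlap of the groups. Of the 9 genes 0 passed (limma, adjusted p under 0.05). The basophil proteases Mcpt8 and Prss34 were also above background, and brighter on the replicate 1 arrays: Mcpt8 was at 10.36, 9.20 and 9.03 on naive and 10.60, 9.14 and 9.11 on ionomycin arrays 1, 2 and 3. The basophil list also held Itga2, which was not above background, and Cd200r3, one of the 10 receptors. Cd200r3 on the replicate 1 arrays was 0.14 (naive) and -0.02 (ionomycin) from the mean of the other 2 arrays. Of the other lists, 6 of 6 macrophage markers, 4 of 5 neutrophil markers (not S100a8) and 2 of 3 dendritic cell markers (not Flt3) were above background. Array means of the macrophage list ran from 7.99 to 8.31 in naive and from 7.96 to 8.44 in ionomycin arrays. Its genes differed on the replicate 1 arrays, measured from the mean of the other 2. Cd68 was lower (-1.44 naive, -0.75 ionomycin), while Mrc1 (0.79, 0.18), Adgre1 (0.32, 0.53), Csf1r (0.30, 0.15) and C1qb (0.27, 0.05) were higher. C1qa differed by 0.03 and -0.07. In the dendritic cell list H2-Ab1 was lower (-0.90, -0.32), Itgax was higher in naive (0.38, -0.02) and Flt3 differed by -0.08 and -0.03. Of the mast cell markers, Hdc was lower in naive only (-0.86, 0.33) and Mcpt4 in both groups (-0.54, -0.31). Ms4a2 was higher in both (0.39, 0.29), and Kit was higher in naive only (0.16, -0.33). Among Fcer1a, Cpa3, Tpsb2, Cma1 and Gata2 the largest deviation was -0.14 (Gata2, naive). Array means of 3 short lists did not overlap and were higher after ionomycin: the dendritic cell list ran from 7.27 to 7.60 (naive) and from 7.66 to 7.87 (ionomycin), the eosinophil list, which holds Siglecf, at 6.24 to 6.26 and 6.50 to 6.58, and the T or B cell list at 6.15 to 6.31 and 6.34 to 6.49. Of all single genes, 18.9% were higher without overlap. In the dendritic cell list H2-Ab1 differed by 0.18, with overlap. In the eosinophil list Siglecf differed by 0.56, and Epx and Prg2, the latter not above background, by 0.14 each. The 2 measured T or B cell genes, Cd3e (6.43) and Cd79a (6.21, means over 6 arrays), lay near background. Of the genes of these 3 lists 0 passed, and Itgax, the dendritic cell integrin CD11c, differed by 0.67 (limma adjusted p = 0.216), more than any of the 10 receptors. The part of other cell types in the results below was not tested.

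The low-affinity IgG receptors were the pair with the lowest ionomycin values relative to naive. Fcgr2b encodes FcγRIIB, which carries an inhibitory motif and recruits SHIP1 when immune complexes link it to the IgE receptor. Its log2 signal was 9.10, 8.99 and 8.98 on naive arrays 1, 2 and 3 and 8.55, 8.64 and 8.34 on ionomycin arrays 1, 2 and 3. Every ionomycin array lay below every naive array. The difference was -0.51 ± 0.09 (SE, n = 3 per group; 95% interval -0.73 to -0.29), a signal 1.43-fold lower, and it did not pass (limma adjusted p = 0.1003, and 0.0806 with the replicate number as a block).

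Fcgr3 encodes FcγRIII, which binds the same IgG complexes and activates through the Fc receptor gamma chain. It was at 10.69, 10.21 and 10.19 on the naive arrays and at 10.09, 9.96 and 9.85 on the ionomycin arrays. The groups did not overlap, the highest naive value being that of replicate 1. The difference was -0.40 ± 0.15 (SE; 95% interval -0.76 to -0.04, limma adjusted p = 0.297, or 0.114 blocked), and -0.29 without both replicate 1 arrays. Fcgr2b minus Fcgr3, taken within each array so that array-wide scaling cancels, was -1.34 ± 0.22 in naive and -1.45 ± 0.12 in ionomycin arrays (log2, SD, n = 3). The change of -0.11 was within the spread of the arrays (exact two-sided permutation p = 0.4, adjusted over 4 receptor pairs 0.7, the smallest possible p being 0.1).

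RefSeq places Fcgr2b and Fcgr3 on the same strand of chromosome 1 with Fcgr4 between them. The 250 bases before the annotated start are shown for the 4 genes whose groups did not overlap, with short motifs found by letter search on both strands in capitals: AGATAA (bound by GATA factors), GAGGAA (PU.1), GGAAA (NFAT, the calcium-responsive factor) and TGANTCA (AP-1). A run GAGGAAA counts for both GAGGAA and GGAAA. The windows are from RefSeq, build GRCm38.p6, 5′ to 3′ on the gene's strand. Fcgr2b is at chr1:170976072-170976321 and Fcgr3 at chr1:171059404-171059653, both on the minus strand, the latter being the more upstream of its 2 starts.
Fcgr2b: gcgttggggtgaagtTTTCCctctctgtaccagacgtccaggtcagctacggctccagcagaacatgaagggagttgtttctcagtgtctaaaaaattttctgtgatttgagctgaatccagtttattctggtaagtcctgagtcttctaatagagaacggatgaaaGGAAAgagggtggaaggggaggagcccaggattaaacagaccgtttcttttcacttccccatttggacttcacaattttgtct
Fcgr3: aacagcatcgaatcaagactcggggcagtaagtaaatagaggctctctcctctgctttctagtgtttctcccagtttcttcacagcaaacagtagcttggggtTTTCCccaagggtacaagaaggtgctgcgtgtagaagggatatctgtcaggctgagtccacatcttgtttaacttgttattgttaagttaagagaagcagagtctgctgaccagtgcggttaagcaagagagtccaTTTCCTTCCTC
The Fcgr2b window held GGAAA or its reverse at 2 places and none of the other motifs. The Fcgr3 window held it at 2 places and the reverse of GAGGAA at the last 6 bases before the start. A match of letters is a description of the window and shows no binding.

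Fcgr4, the neighbour between them and an activating IgG receptor, was not above background (means 5.03 and 5.13). Fcgr1, the high-affinity IgG receptor, had means of 6.36 ± 0.08 (naive) and 6.44 ± 0.05 (ionomycin; SD, n = 3; log2 difference 0.08, limma adjusted p = 0.570).

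Of the CD300 family, CD300a and CD300lf bind phospholipids exposed on dying cells. Cd300a encodes a receptor with inhibitory motifs that restrains IgE-driven mast cell activation. It was at 9.78, 10.28 and 10.25 on naive arrays 1, 2 and 3 and at 9.60, 9.85 and 9.90 on ionomycin arrays. Within each replicate number the ionomycin array was lower, by differences of -0.18, -0.44 and -0.35, but the groups overlapped because the naive replicate 1 array was low. The mean difference was -0.32 ± 0.16 (SE; 95% interval -0.70 to 0.06, limma adjusted p = 0.356, and 0.116 with the block). Without both replicate 1 arrays it was -0.39 and passed (limma adjusted p = 0.0411).

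Cd300lf encodes a receptor with inhibitory motifs that can also deliver activating signals. It was at 9.74, 10.53 and 10.56 on naive and at 9.89, 10.46 and 10.60 on ionomycin arrays. Both replicate 1 arrays were low and the other 4 lay close together, so the replicate number and not the group separated the arrays. The difference was 0.04 ± 0.28 (SE; 95% interval -0.64 to 0.72, limma adjusted p = 0.951) and turned to -0.03 after centring of the arrays and to -0.02 without both replicate 1 arrays. With the block the interval was -0.13 to 0.21.

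Cd300lb encodes a DAP12-coupled activating member of the family. It was at 9.75, 10.44 and 10.36 on naive and at 10.09, 10.11 and 9.94 on ionomycin arrays. Only at replicate 1 was the ionomycin array higher (0.35), against -0.33 and -0.42 at replicates 2 and 3. The mean difference was -0.13 ± 0.19 (SE; 95% interval -0.59 to 0.32, limma adjusted p = 0.727). Without both replicate 1 arrays it was -0.37 (adjusted p = 0.0908). Cd300a minus Cd300lb changed by -0.19 and Cd300lf minus Cd300lb by 0.17 between the groups on the log2 scale (exact permutation p = 0.3 and 0.6, both 0.7 after adjustment over the 4 pairs). In both, the groups' values overlapped. The other family genes with a row of their own, Cd300c, Cd300e, Cd300ld and Cd300lg, differed by between 0.05 and 0.21, and none passed.

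Cd200r1 encodes the receptor for CD200, which inhibits mast cells through the adaptors DOK1 and DOK2 and lacks an inhibitory motif of the classical kind. It was at 10.14, 10.84 and 11.15 on naive arrays and at 10.51, 10.80 and 10.83 on ionomycin arrays. The 3 replicate numbers gave differences of 0.36, -0.03 and -0.33, in no common direction. The means were 10.71 ± 0.52 and 10.71 ± 0.18 (SD, n = 3), and the 95% interval of the difference, -0.62 to 0.62, leaves room for a change of over 1.5-fold either way (limma adjusted p = 0.998). Its direction depended on scaling and on the replicate 1 arrays. The difference was 0.00 as deposited and -0.06 after quantile normalization. It was -0.18 without both replicate 1 arrays and -0.28 without naive replicate 1 alone.

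Cd200r3, a DAP12-coupled relative found on mast cells and basophils, had the tightest ionomycin values of the 10 genes. It was at 11.41, 11.32 and 11.22 on naive and at 11.01, 11.01 and 11.06 on ionomycin arrays, without overlap. The difference was -0.29 ± 0.07 (SE; 95% interval -0.45 to -0.13), a 1.22-fold lower signal, and did not pass (limma adjusted p = 0.167, and 0.124 with the block). The replicate 1 arrays, where Mcpt8 and Prss34 were brighter, differed little from the others for this gene (0.14 in naive and -0.02 in ionomycin arrays). Cd200r1 minus Cd200r3 was -0.60 ± 0.61 in naive and -0.32 ± 0.17 in ionomycin arrays (exact permutation p = 0.7, adjusted 0.7). The relatives Cd200r4 and Cd200r2 did not pass either (-0.22 and -0.11, limma adjusted p = 0.492 and 0.759). The Cd200r3 window, shown because its groups did not overlap, lies at chr16:44943428-44943677 on the plus strand.
Cd200r3: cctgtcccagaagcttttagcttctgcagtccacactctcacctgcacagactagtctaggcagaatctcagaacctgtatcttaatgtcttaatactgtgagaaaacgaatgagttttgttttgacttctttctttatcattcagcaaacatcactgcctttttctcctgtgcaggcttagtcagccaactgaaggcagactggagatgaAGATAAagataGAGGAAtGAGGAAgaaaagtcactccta
Its letters AGATAA begin 39 bases before the start and are followed by GAGGAA at 28 and 21 bases. Cd200r3 and Pilra were the 2 of 9 windows with AGATAA, which 9.99% of 32851 RefSeq windows of this length hold. GAGGAA was in 6 of the 9 (23.3% of all windows), GGAAA in 8 (55.6%) and TGANTCA in 0 (6.75%).

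Cd33 encodes a siglec, a receptor for sialic acids. The mouse protein lacks the canonical inhibitory motif of human CD33. Its signal was 11.27, 10.89 and 10.95 on naive arrays 1, 2 and 3 and 11.64, 11.35 and 11.37 on ionomycin arrays. The differences at the 3 replicate numbers, 0.37, 0.46 and 0.42, were close to each other, and no array of one group reached into the other. The mean difference was 0.42 ± 0.13 (SE; 95% interval 0.10 to 0.73), a 1.34-fold higher signal that did not pass (limma adjusted p = 0.2502, and 0.0658 with the block). It passed without both replicate 1 arrays (0.44, limma adjusted p = 0.0325). The window before its start is chr7:43533172-43533421 on the minus strand.
Cd33: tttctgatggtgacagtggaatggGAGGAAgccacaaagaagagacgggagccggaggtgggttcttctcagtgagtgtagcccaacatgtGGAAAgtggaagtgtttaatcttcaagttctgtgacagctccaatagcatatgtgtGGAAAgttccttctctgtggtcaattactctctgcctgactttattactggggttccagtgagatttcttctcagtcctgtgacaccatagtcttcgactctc
GAGGAA begins 226 bases and GGAAA 159 and 103 bases before the start.

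**Figure D2:**
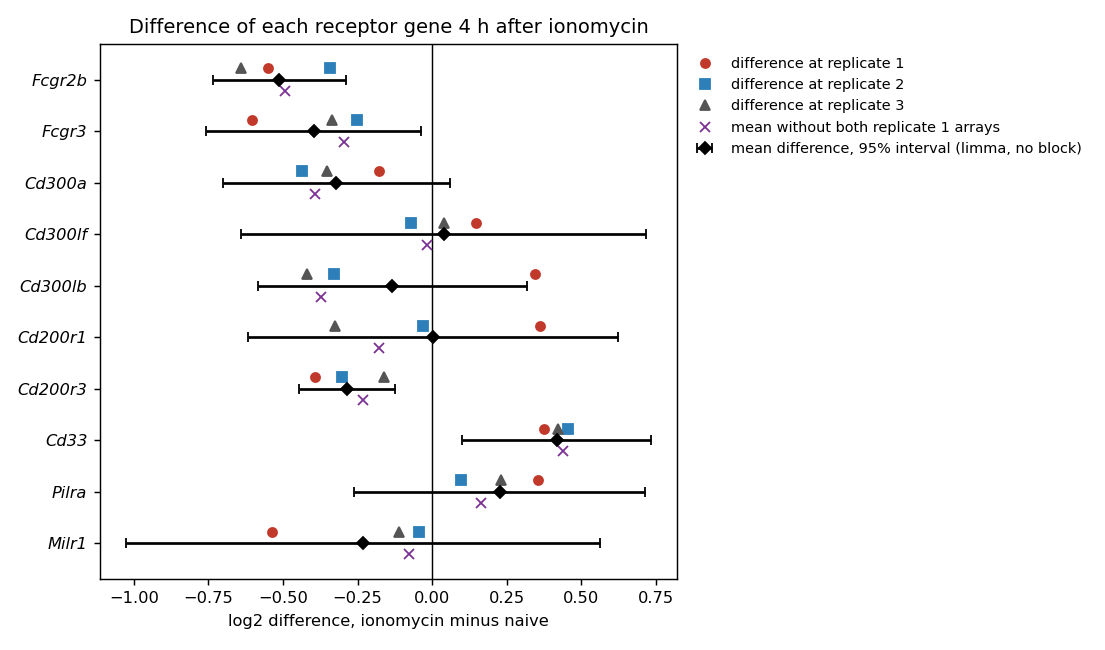
Log2 difference, ionomycin minus naive (horizontal axis), of each receptor gene, with the mean and its 95% interval from limma without a block (black), the difference at each replicate number (coloured) and the mean without both replicate 1 arrays (cross). Intervals of Fcgr2b, Fcgr3, Cd200r3 and Cd33 lie to one side of 0 before adjustment, and the interval of Milr1 is the widest, from -1.03 to 0.56.

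Among siglec relatives, Siglecf, an inhibitory siglec known from eosinophils, had the smallest p of the family list. Its mean log2 signal was 6.55 ± 0.04 in naive and 7.10 ± 0.14 in ionomycin arrays (SD, n = 3; log2 difference 0.56 ± 0.08 SE) and did not pass (adjusted p = 0.0717 by limma, 0.0755 with the block). The eosinophil granule genes Prg2, not above background, and Epx differed by 0.14 each.

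Pilra encodes PILRα, an inhibitory receptor for sialylated proteins whose partner PILRβ signals through DAP12. It was at 6.81, 6.73 and 6.29 on naive and at 7.16, 6.83 and 6.52 on ionomycin arrays. Each ionomycin array was above the naive array of its number, by 0.35, 0.10 and 0.23, yet the groups overlapped and replicate 3 was the lowest in both. The mean difference was 0.23 ± 0.20 (SE; 95% interval -0.26 to 0.71, limma adjusted p = 0.577, and 0.154 with the block). Of the macrophage list, Csf1r, Adgre1, Mrc1, C1qb and C1qa were also lowest on replicate 3 in both groups. Cd68 was lowest on replicate 1 in both. The part of macrophage transcripts in the Pilra values was not tested. The 2 genes of the activating partner, Pilrb1 and Pilrb2, differed by 0.11 and 0.13 (limma adjusted p = 0.854 and 0.807).

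Milr1 encodes Allergin-1, an inhibitory receptor of mast cells that dampens IgE-dependent anaphylaxis. It was at 8.30, 7.32 and 7.19 on naive and at 7.77, 7.27 and 7.08 on ionomycin arrays. The replicate 1 arrays were the highest of each group, 1.05 above the mean of the other 2 in naive and 0.59 in ionomycin arrays. The mean difference of -0.23 ± 0.33 (SE; 95% interval -1.03 to 0.56, limma adjusted p = 0.732) shrank to -0.08 without both replicate 1 arrays and was 0.12 without the naive replicate 1 array alone.

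**Figure D3:**
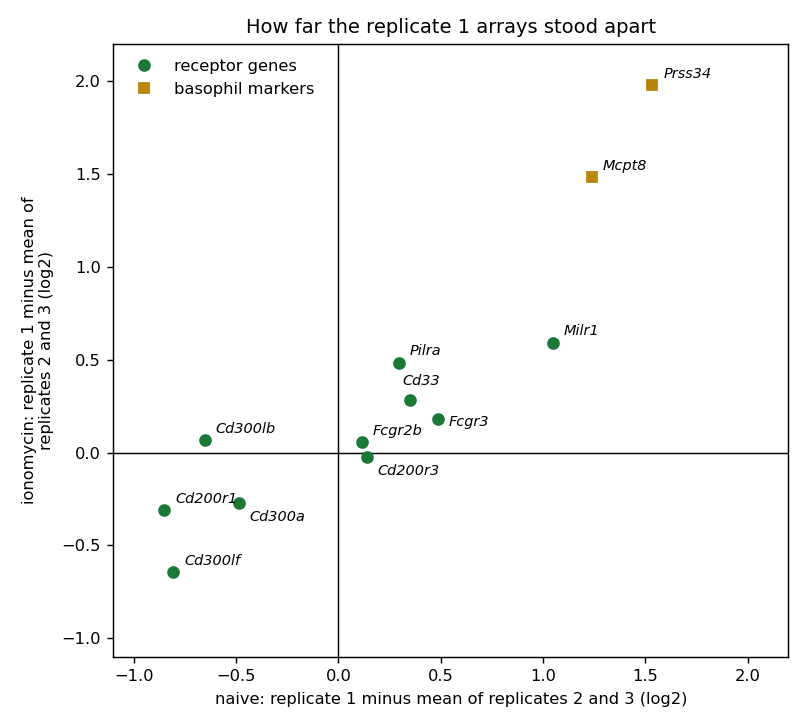
Log2 signal of the replicate 1 array minus the mean of replicates 2 and 3, in naive (horizontal axis) and ionomycin arrays (vertical axis), for the 10 receptor genes and the basophil markers Mcpt8 and Prss34. Milr1 and both markers are higher on the replicate 1 arrays of both groups. So are Fcgr3, Cd33, Pilra and Fcgr2b, by less than Milr1. Cd300lf, Cd200r1 and Cd300a are lower on them, and Cd300lb is lower in naive only (-0.65, and 0.07 in ionomycin). Cd200r3, a receptor gene that is also on the basophil list, lies at 0.14 (naive) and -0.02 (ionomycin).

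The replicate 1 arrays thus deviated by more than the treatment difference for several receptors. Naive replicate 1 lay -0.85 from the mean of the other 2 naive arrays for Cd200r1, -0.81 for Cd300lf, -0.65 for Cd300lb and -0.49 for Cd300a, and 0.49 above it for Fcgr3. On the same arrays Mcpt8 was 1.24 and Prss34 1.54 above it in naive, and 1.48 and 1.98 in ionomycin arrays. The part of basophil transcripts in these values was not tested. Without both replicate 1 arrays 1 gene, Cd33, rose and 1, Cd300a, fell (limma, adjusted p under 0.05), beside 1.34% and 1.31% of all genes. With a block of 2 levels, replicate 1 against the others, Cd33 rose, and Fcgr2b and Cd300a fell (limma adjusted p = 0.0173, 0.0358 and 0.04999, the last just under the threshold), beside 2.18% of all genes higher and 2.36% lower. When limma weighted the arrays, Cd33 rose and Fcgr2b, Cd300a and Cd200r3 fell, that is 1 and 3 of the 10, beside 7.35% and 5.39% of all genes. With the full replicate block 0 of the 10 passed, beside 0.397% and 0.114%. At all 3 replicate numbers, 2 of the 10 were higher (Cd33 and Pilra) and 5 lower (Cd200r3, Cd300a, Fcgr2b, Fcgr3 and Milr1), beside 36% and 16.6% of all genes.

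The 22 measured genes of the receptors' families, 19 of them above background, gave 0 calls, with a median difference of 0.11 and 20 of them above 0 (all genes: median 0.05, 64.8% above 0). Several lay close to the background of 6.06, such as Siglech (6.08), Cd22 (6.14), Cd300e (6.15) and Fcamr (6.21, means over 6 arrays). After Siglecf, Siglec15 (0.22) and Cd300lg (0.21) had the smallest p (limma adjusted p = 0.288 and 0.305). Of 6 ligand genes 0 passed. Cd200, the ligand of CD200R1, was not above background (5.39 and 5.64), and the PILRα ligand genes Npdc1 and Pianp differed by 0.15 and 0.12 (limma adjusted p = 0.358 and 0.371).

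Downstream of the inhibitory tails, 1 of 15 measured genes passed and 11 of the 15 had a difference below 0, beside 35.2% of all genes. The list's median was -0.19. By limma before adjustment, 2 genes were higher and 5 lower at p under 0.05, beside 10.1% and 5.4% of all genes. The gene that passed was Inpp5d, which encodes SHIP1, the lipid phosphatase that FcγRIIB recruits. It went from 11.95 ± 0.11 to 11.31 ± 0.07 (SD, n = 3), a fall of 1.56-fold (log2 -0.64 ± 0.08 SE, limma adjusted p = 0.0451, and 0.0699 with the block). This call was close to the threshold and held in 5 of 17 alternative settings. Without any 1 of the 6 arrays the difference was between -0.71 and -0.60 and the adjusted p between 0.0643 (without naive replicate 1) and 0.267 (without ionomycin replicate 2). A further 3 genes, named for their role after their values were seen, did not pass: Ptpn6, which encodes SHP-1 (-0.29, limma adjusted p = 0.278), and Dok2 and Dok1, the adaptors of CD200R1 (0.56 and -0.05, adjusted p = 0.0947 and 0.889).

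Of 18 measured genes of activating adaptors and their signalling, 0 passed by limma. Before adjustment, p was under 0.05 for 1 gene with a higher and 6 with a lower ionomycin value, beside 10.1% and 5.4% of all genes. The list's median was -0.18, and 13 of the 18 had a difference below 0, beside 35.2% of all genes. The smallest p-values were those of Vav1, an exchange factor (-0.75), Syk, the kinase that docks on activating motifs (-0.38), and Ms4a2, the IgE receptor beta chain (-0.62), with limma adjusted p = 0.0699, 0.0968 and 0.165. With the replicate block Vav1 passed (limma adjusted p = 0.0459). Of the adaptors through which the activating partners signal, Tyrobp, which encodes DAP12, differed by 0.06 ± 0.09 (SE) and Fcer1g, the Fc receptor gamma chain, by 0.05 ± 0.08 (limma adjusted p = 0.723 and 0.764).

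Among 18 other inhibitory receptors of myeloid cells, 1 rose, 0 fell and 17 did not pass, with a median of 0.04. Ceacam1, a cell adhesion receptor with inhibitory motifs, rose from 8.98 ± 0.21 to 10.65 ± 0.17 (SD, n = 3), 3.17-fold (log2 1.66 ± 0.13 SE, limma adjusted p = 0.0149; blocked 0.0424). It passed without naive replicate 1 or 2 and did not pass without naive replicate 3 (limma adjusted p = 0.0903) or without ionomycin replicate 1 (0.0542), 2 (0.101) or 3 (0.106). The largest of the 10 receptor differences in either direction, that of Fcgr2b, was -0.51.

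**Figure D4:**
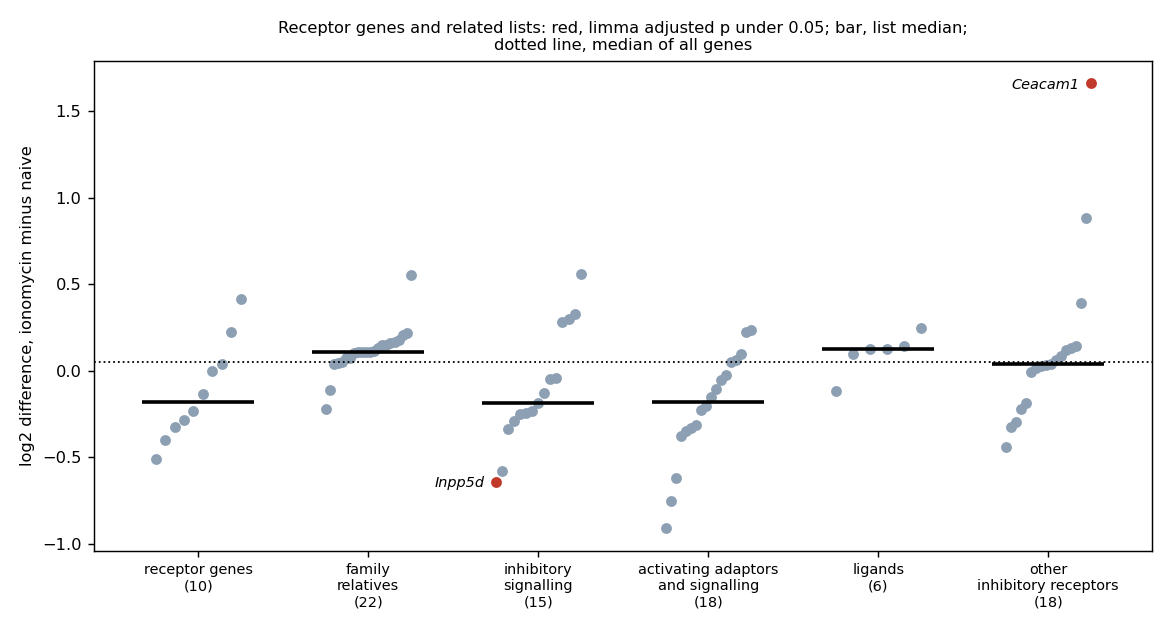
Log2 difference, ionomycin minus naive (vertical axis), of each measured gene of the receptor set and 5 related lists (columns, number of genes in brackets), with genes past the limma threshold in red, a bar at each list's median and a dotted line at the median of all genes. Inpp5d (-0.64) and Ceacam1 (1.66) are the genes past the threshold, and none of the 10 receptor genes is.

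Over the 6 arrays the 3 genes above background whose pattern was most like that of Fcgr2b, by Pearson's r among 19217 genes, were Abhd14b (r = 0.999), Adnp2 (0.995) and Kif3a (0.993). Fcgr2b and these 3 genes each had every ionomycin array below every naive array, so the 6 points share a group difference. Their replicate 1 deviations were at most those of Fcgr2b (0.11 naive and 0.06 ionomycin). The ranking is given as a description.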

How the data were processed

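Values are the authors' processed log2 signals, deposited as 65770 rows by 6 arrays with no missing values. Per the submitters' processing notes the authors used the R package oligo. The sources used here do not state its version, a build, or how probes were summarized and arrays normalized. The log2 scale was read from the values (3.01 to 14.6). How arrays were scaled stays unknown: column medians run from 5.88 to 6.03, so differences of about 0.1 can depend on scaling. The platform annotation named the rows: 30439 had 1 symbol, 612 more had symbols that are aliases of 1 gene in RefSeq GRCm38.p6, 1534 had several genes and 33185 none. The brightest row was kept per gene.

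The sample titles gave the groups and replicate numbers. A linear model with 1 term for ionomycin was fitted to all 30710 genes (limma 3.58.1 with empirical Bayes moderation in R 4.3.3, and version 1.17.8 of data.table), two-sided, without a block or a filter, with Benjamini-Hochberg adjustment and a threshold of 0.05. The fit was tested on simulated data with independent noise on each array. The simulation held no shared deviation of the arrays numbered 1, so it does not cover that structure. Receptor pairs were compared by exact permutation over arrays. The number of arrays, 3 per group, limits the precision. No label states a pairing, and in the data the arrays numbered 1 deviate together. The correlation of deviations can say little on numbers 2 and 3, because deviations in a group of 3 sum to 0. Alternatives were a replicate block, other scalings, filters, weights, and leaving out arrays. All 10 receptor genes are named, and of each list the genes past the threshold or, with none, the 3 with the smallest p. Further list genes are named as relatives, partners or adaptors of the receptors or for lying near background. A list gene left unnamed can thus have a smaller p than a named gene. Genes, lists and alternatives were chosen with earlier results of these data known.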

Additional observations from a re-analysis of the deposited data

How the results depend on the processing

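The count of 0 receptor genes called held in 14 of 17 alternative settings, among them the replicate block (0 higher, 0 lower), all 6 fits that leave out 1 array (0 to 0), both other scalings, the filter on dim genes and a t statistic without moderation. It was 1 higher and 2 lower with a block of 2 levels, 1 higher and 1 lower without both replicate 1 arrays, and 1 higher (Cd33) and 3 lower (Fcgr2b, Cd300a and Cd200r3) with array weights, where 7.35% of all genes were called higher and 5.39% lower. The cause was not tested. Over the 17 settings the difference of Fcgr2b ran from -0.58 to -0.43 and that of Cd33 from 0.29 to 0.53. Cd200r1, near 0, turned to -0.18 without both replicate 1 arrays, -0.057 after quantile normalization, -0.065 after centring, -0.070 with array weights, and, without 1 array, -0.28 (naive replicate 1), -0.045 (ionomycin replicate 2) and -0.056 (ionomycin replicate 3), with values up to 0.22 without another array. Cd300lf turned to -0.016 without both replicate 1 arrays, -0.028 after centring, -0.044 with array weights, and, without 1 array, -0.23 (naive replicate 1), -0.036 (ionomycin replicate 2) and -0.10 (ionomycin replicate 3), with values up to 0.25 without another array. Milr1 ran from -0.44 without naive replicate 3 to 0.12 without naive replicate 1. Cd200r1 minus Cd200r3 turned to -0.042 without naive replicate 1 (up to 0.56 in the others), and Cd300lf minus Cd300lb to -0.024 without ionomycin replicate 3 (up to 0.41). Calls over all genes, 88 higher and 17 lower, were 122 and 35 with the replicate block, 70 and 32 after centring, 74 and 26 after quantile normalization, 2256 and 1655 with array weights and 0 and 0 without moderation, and between 1 and 98 higher and between 0 and 56 lower without 1 array. The fall of Inpp5d held in 5 of 17 settings. It missed the threshold after quantile normalization (limma adjusted p = 0.0988) or centring (0.0542), with the replicate block (0.0699), with the trended and robust fit (0.0623), with all rows tested (0.0567) or without any 1 array, and without moderation neither it (0.167) nor the rise of Ceacam1 (0.148) passed. The number of arrays limits these comparisons, and the signal of Pilra lies near background.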
